A study of Homo sapiens with 4 samples.

Results

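The enzymes described here make serine and move its side-chain carbon onto folate. They are 9 genes of the 60671 Ensembl genes listed for 22RV1 and PC3 cells: PHGDH, PSAT1 and PSPH for serine synthesis, SHMT1 and MTHFD1 for the cytosolic folate steps, and SHMT2, MTHFD2, MTHFD1L and ALDH1L2 for the mitochondrial folate steps. The genes were chosen by pathway with the abundances and log2 ratios of these same libraries already known, so their values are given as a description and none of them was tested. Each symbol matched 1 identifier in both cell lines.

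RNA-seq covered 4 libraries: 22RV1 cells expressing control shRNA (shCON), 22RV1 cells expressing shRNA against DDX52 (shDDX52), PC3 cells expressing shCON and PC3 cells expressing shDDX52. 22RV1 is an established human prostate carcinoma line with luminal features, and PC3 is an established human prostate carcinoma line derived from a bone metastasis. All cells had been infected with lentivirus from the same vector and selected with puromycin, and the methods give a single shRNA sequence against DDX52, a DEAD-box RNA helicase. Each condition had 1 library, so no difference has a replicate check, and a lower transcript level per cell cannot be told apart from fewer cells that carry the transcript. Levels are in transcripts per 1000000 (TPM), which corrects for transcript length and lets genes be compared within a library but keeps no sequencing depth. The reads behind each value are therefore unknown, and no interval is given.

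Serine is built from an intermediate of glycolysis in consecutive steps by PHGDH, which oxidises it, PSAT1, which adds the amino group, and PSPH, which removes the phosphate. SHMT1 in the cytosol and SHMT2 in mitochondria then split serine into glycine and a carbon unit bound to tetrahydrofolate. MTHFD2 oxidises that unit in mitochondria, MTHFD1L releases it as formate, ALDH1L2 can burn it to CO2 with formation of NADPH, and MTHFD1 takes formate back onto folate in the cytosol for purine and thymidylate synthesis. Proliferating tumour cells are known for drawing on this route, and several of its genes are known targets of the transcription factor ATF4.

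On GRCh38 in GENCODE release 29, all 9 are protein-coding genes. The plus-strand genes are PHGDH (ENSG00000092621) at chr1:119648411-119744226, PSAT1 (ENSG00000135069) at chr9:78297143-78330093, MTHFD1 (ENSG00000100714) at chr14:64388031-64463457, SHMT2 (ENSG00000182199) at chr12:57229327-57234935, MTHFD2 (ENSG00000065911) at chr2:74198562-74217565 and MTHFD1L (ENSG00000120254) at chr6:150865549-151101887. The minus-strand genes are PSPH (ENSG00000146733) at chr7:56011051-56051604, SHMT1 (ENSG00000176974) at chr17:18327860-18363563 and ALDH1L2 (ENSG00000136010) at chr12:105019784-105084577. They are not neighbours: SHMT2 and ALDH1L2 alone share a chromosome, and they lie far apart on it.

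RefSeq promoter windows on GRCh38.p14, from 250 bases before to 50 bases after a start site, were on hand for 6 of the 9 enzymes and not for PSPH, SHMT2 and ALDH1L2. They are shown because all 9 enzymes were lower in 22RV1 shDDX52, and they were searched on both strands for 3 letter patterns chosen with the results known: CCAAT, the CCAAT box, CACGTG, an E-box bound by MYC with MAX and by related factors, and TGATGNAA, the core letters of the composite element bound by ATF4 with C/EBP partners. CCAAT was present in all 6 enzymes, against 39.7% of 27305 genes with a window and 34.6% of 35116 windows. CACGTG was present in 2 of the 6, MTHFD1 and MTHFD1L, against 8.77% of genes, and TGATGNAA in 1, MTHFD1L, against 4.46% of genes. MTHFD1L had 4 windows and each of the others 1, so more sequence was searched for MTHFD1L. The stretches below run 5′ to 3′ on the strand of the gene, lie before at least 1 RefSeq start site of the gene, and carry the matched letters in capitals. Longer stretches are given only where they lie outside the GENCODE gene. The CCAAT matches of MTHFD1 and MTHFD1L and 1 of the 2 in SHMT1 are not printed.
PSAT1 at chr9:78297004-78297085, plus strand: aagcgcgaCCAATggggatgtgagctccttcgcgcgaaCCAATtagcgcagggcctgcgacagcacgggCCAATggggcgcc
MTHFD2 at chr2:74198423-74198553, plus strand: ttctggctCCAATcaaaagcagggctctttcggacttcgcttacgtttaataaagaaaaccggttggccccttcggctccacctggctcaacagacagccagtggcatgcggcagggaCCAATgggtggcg
PHGDH at chr1:119711855-119711875, plus strand: atttccgtCCAATcaaaagga
SHMT1 at chr17:18363614-18363634, minus strand: cgccgcagCCAATagcgcggg
MTHFD1 at chr14:64388330-64388351, plus strand: tccctaagCACGTGggttgggt
MTHFD1L at chr6:150866324-150866345, plus strand: cccggctcCACGTGcgcagccg
MTHFD1L at chr6:150866349-150866372, plus strand: gccggctcTGATGCAAtcgcgccg

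PSAT1 held CCAAT 3 times, 113, 83 and 52 bases before its start site. Counting both strands, MTHFD2, SHMT1 and MTHFD1 each held it 2 times, and 1 of the MTHFD1 matches lay after the start site. PHGDH and MTHFD1L held it at 1 place. Of the 6, MTHFD1L alone had the ATF4 letters in a window, and PHGDH, PSAT1, SHMT1 and MTHFD2 had neither these letters nor CACGTG there. Any relation between the patterns and the differences with knockdown was not tested. A match is a run of letters and not a bound site, and the absence of a match applies to these windows alone.

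The targeted gene was lower in both knockdown libraries. DDX52 stood at 4.88 TPM with shCON against 1.2 TPM with shDDX52 in 22RV1, and at 9.2 TPM against 2.07 TPM in PC3. The number of genes at 1 TPM or more ranged from 13504 to 13738, and nuclear rRNA genes took 1.21% of the TPM of 22RV1 shCON, 0.0872% of 22RV1 shDDX52, 0.0923% of PC3 shCON and 3.13% of PC3 shDDX52. Transcripts of the mitochondrial genome took 9.81% (shCON) and 13.0% (shDDX52) of the TPM in 22RV1, and 8.10% and 10.3% in PC3, a higher share in the knockdown library of each line whose part in the enzyme differences was not tested. The cell line labels fitted the markers: KLK2, a luminal prostate kallikrein, was 32.6 and 23.1 TPM in 22RV1 and listed at 0 in both PC3 libraries, and CAV1 was under 0.5 TPM in 22RV1 and 162 and 130.2 TPM in PC3. In 22RV1, 3 fibroblast and 2 leukocyte markers reached 1 TPM, and in PC3, 1 fibroblast, 2 endothelial and 1 leukocyte marker. Of these, 3 were at least 2-fold lower in 22RV1 shDDX52, against 2.86% of genes that reached 1 TPM. They were LUM (16.5 to 6.91 TPM), DCN (1.87 to 0.28) and CD68 (8.82 to 2.4). In PC3, 1 was, against 3.44%: PECAM1, from 5.03 to 0.85 TPM. The other endothelial marker that reached 1 TPM there, CDH5, went up instead, from 0.61 to 1.98 TPM. In 22RV1 the fibroblast marker COL1A1 likewise went up, from 2.81 to 4.77 TPM. COL1A2, VWF, PTPRC and CD3E stayed under 0.5 TPM in all 4 libraries. The summed fibroblast markers were 21.2 and 12.1 TPM in 22RV1 and 8.77 and 8.07 TPM in PC3, the leukocyte markers 10.9 and 4.41 TPM in 22RV1 and 38.5 and 36.0 TPM in PC3, and the endothelial markers at most 0.02 TPM in 22RV1 and 5.68 and 3.08 TPM in PC3. The leukocyte sums were mostly CD68, which alone was 38.35 and 35.57 TPM in PC3. The part of these markers in the enzyme differences was not tested.

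Control 22RV1 cells held more of every enzyme transcript than control PC3 cells. Summed over the 9 enzymes, they came to 1685 TPM in 22RV1 against 658 TPM in PC3. The log2 difference, log2((TPM 22RV1 + 1) / (TPM PC3 + 1)), was above 0 for all 9 enzymes, against 52.3% of the 15727 genes that reached 1 TPM in a control library. It was at least 1, that is 2-fold, for 5 enzymes, against 21.3% of those genes. The median of the 9 was 1.19, beside a median of 0.067 over all these genes.

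The order of the levels differed between the lines. In 22RV1 shCON it ran SHMT2, PHGDH, MTHFD1, PSAT1, SHMT1, MTHFD2, PSPH, MTHFD1L and ALDH1L2, from 644 to 11.1 TPM. In PC3 shCON it ran SHMT2, PHGDH, MTHFD1, MTHFD2, MTHFD1L, PSPH, SHMT1, PSAT1 and ALDH1L2, from 281 to 0.04 TPM. PSAT1 was thus the fourth most abundant in 22RV1 and next to last in PC3. SHMT1 and MTHFD2, at 89.1 and 88.5 TPM, were next to each other in 22RV1, as were MTHFD1L, PSPH and SHMT1, between 26.9 and 28.4 TPM, in PC3, and with 1 library such neighbours cannot be ordered.

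**Figure D1:**
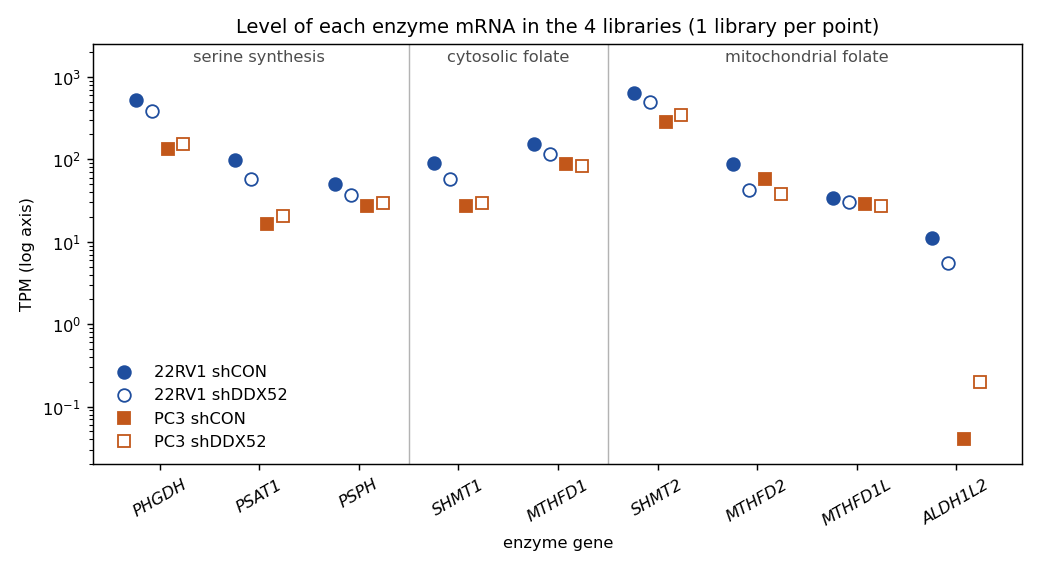
TPM on a log axis of each of the 9 enzyme mRNAs in the 4 libraries, with circles for 22RV1, squares for PC3, filled symbols for shCON and open symbols for shDDX52, 1 library per point. For every enzyme the open 22RV1 circle lies below the filled one, and ALDH1L2 in PC3 lies at 0.04 and 0.20 TPM.

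With shDDX52, all 9 enzymes were lower in 22RV1 cells, while in PC3 cells MTHFD2 was lower and the others were level or higher. Differences with knockdown are given as the log2 ratio, log2((TPM shDDX52 + 1) / (TPM shCON + 1)). In 22RV1 the log2 ratio was below 0 for 9 of 9 enzymes, against 58.8% of the 14438 genes tested, those that reached 1 TPM in one of its libraries or both. A ratio at least 1.5-fold lower was found for 4 enzymes (MTHFD2, ALDH1L2, PSAT1 and SHMT1) against 8.47% of genes, and a ratio 2-fold lower or more for 1 (MTHFD2) against 2.86% of genes. Relative to the median of all genes, MTHFD2 stood at −0.98 and no enzyme passed 2-fold, and SHMT1 stood at −0.53 and no longer passed 1.5-fold. None was at least 1.5-fold higher, against 5.61% of genes. The median of the 9 was −0.42, beside −0.076 over all genes tested, and the summed level of the 9 was 1685 TPM for shCON and 1228 TPM for shDDX52. Since the genes were chosen with these ratios known, the shares stand as a description.

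In PC3 cells 8 of the 9 enzymes reached 1 TPM, ALDH1L2 being the exception. Of the 8, 5 were above 0, against 46.3% of the 14262 genes tested, and 3 were below 0, against 53.5%. MTHFD2 was at least 1.5-fold lower, against 9.84% of genes, none was at least 1.5-fold higher, against 8.95%, and none was at least 2-fold lower, against 3.44%. MTHFD2 no longer passed 1.5-fold relative to the median of all genes, at −0.57, or with TPM over nuclear protein-coding genes, at −0.49. The median of the 8 was 0.11, beside −0.036 over all genes tested. The summed level was 658 TPM in shCON and 728 TPM in shDDX52. PHGDH, PSAT1, PSPH, SHMT1 and SHMT2 lay below 0 in 22RV1 and above 0 in PC3, as did 27.4% of the 12175 genes tested in both lines, and the difference between the lines was not tested.

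The composition of the PC3 libraries bears on these small ratios. When TPM was recomputed over nuclear protein-coding genes, the median log2 ratio of all genes in PC3 went from −0.036 to 0.087, and the share below 0 from 53.5% to 40.3%, with 46.3% and 59.7% above 0. Relative to the median of all genes, the enzymes hardly moved: SHMT2 stood 0.35 above it with either scaling, PSAT1 0.37 above it, and MTHFD2 0.57 below it. MTHFD1 and MTHFD1L had PC3 log2 ratios of −0.067 and −0.0755 as deposited and 0.061 and 0.050 after the recomputation, so no direction can be given for them in PC3.

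**Figure D2:**
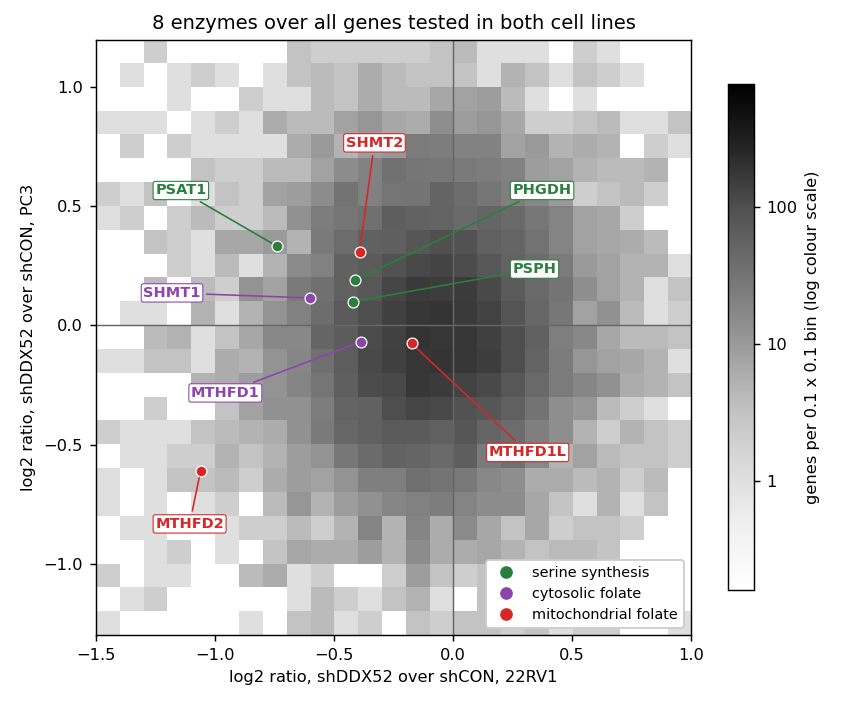
Log2 ratio of shDDX52 over shCON in 22RV1 (horizontal) against that in PC3 (vertical) for the 8 enzymes tested in both lines, over grey bins that count the genes tested in both lines, of which 410 lie outside the view. MTHFD2 is the only enzyme well below 0 on both axes, and PHGDH, PSAT1, PSPH, SHMT1 and SHMT2 lie left of 0 and above 0.

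The serine synthesis enzymes lay below 0 in 22RV1 and above 0 in PC3. PHGDH, which commits the glycolytic intermediate to serine, was 518 TPM with shCON against 389 TPM with shDDX52 in 22RV1, and 133 and 152 TPM in PC3. Its log2 ratios were −0.41 and 0.19. The 22RV1 libraries were both higher than the PC3 libraries, 3.90 times with shCON and 2.57 times with shDDX52.

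PSAT1, the transaminase, showed the widest gap between the lines among the enzymes that reached 1 TPM in both. It was 98.1 and 58.4 TPM in 22RV1 and 16.3 and 20.7 TPM in PC3, shCON first, which gave log2 ratios of −0.74 and 0.33. In 22RV1 the knockdown library held 59.5% of the control level, and 1.22% of the 2139 genes within 2-fold of its mean level had a lower log2 ratio. In PC3 the knockdown library held 127% of the control level, and 83.6% of the 4104 genes of similar level had a lower log2 ratio. The excess of 22RV1 over PC3 was 6.03 times with shCON and 2.82 times with shDDX52.

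PSPH, the phosphatase of the last step, was 49.5 and 36.7 TPM in 22RV1 and 27.2 and 29.2 TPM in PC3, with log2 ratios of −0.42 and 0.10. In control cells its gap between the lines, 1.82 times, was narrower than those of PHGDH and PSAT1, and in shDDX52 cells it was 1.26 times. PHGDH and PSPH kept a similar proportion with either shRNA: PHGDH over PSPH was 10.5 in 22RV1 shCON and 10.6 in 22RV1 shDDX52, and 4.88 and 5.19 in PC3. PSAT1 differed from both, since PSAT1 over PSPH was 1.98 and 1.59 in 22RV1 and 0.598 and 0.710 in PC3, and PHGDH over PSAT1 was 5.28 and 6.67 in 22RV1 and 8.16 and 7.31 in PC3. Such ratios do not depend on how a library was scaled. The pseudogene PSPHP1, named after PSPH, was 2.94 and 1.67 TPM in 22RV1 and listed at 0 in both PC3 libraries, and how reads shared by both genes were counted is not given in the sources used here.

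Of the cytosolic enzymes, SHMT1 was 89.1 and 58.4 TPM in 22RV1 and 26.9 and 29.3 TPM in PC3, with log2 ratios of −0.60 and 0.12. The knockdown library held 65.6% of the control level in 22RV1 and 109% in PC3. In 22RV1, 2.84% of the 2181 genes of similar level had a lower log2 ratio than SHMT1.

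MTHFD1, which joins formate to tetrahydrofolate and interconverts the products, was 153 and 117 TPM in 22RV1 and 87.5 and 83.5 TPM in PC3. Its log2 ratio was −0.38 in 22RV1. In PC3 the knockdown library held 95.4% of the control level. In 22RV1 the value was less extreme than that of SHMT1, since 7.38% of the 1450 genes of similar level lay below it.

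Among the mitochondrial enzymes, SHMT2 had the highest level of all 9 in every library. It was 644 and 490.4 TPM in 22RV1 and 281 and 349 TPM in PC3, with log2 ratios of −0.39 and 0.31. The knockdown library held 76.2% of the control level in 22RV1 and 124% in PC3. SHMT2 made up between 38.2% (22RV1 shCON) and 47.9% (PC3 shDDX52) of the summed TPM of the 9 enzymes. NDUFA4L2, which overlaps SHMT2 on the opposite strand, was at most 8.51 TPM.

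MTHFD2, the dehydrogenase and cyclohydrolase that acts after SHMT2, was lower with shDDX52 in both lines. In 22RV1 it was 88.5 TPM with shCON against 42.0 TPM with shDDX52, and in PC3 58.0 and 37.6 TPM, giving log2 ratios of −1.06 and −0.61. Both control libraries lay above both knockdown libraries. In 22RV1, 0.46% of the 2379 genes of similar level had a lower log2 ratio, and in PC3, 6.03% of 2921. The knockdown libraries held 47.4% and 64.9% of the control levels. The gene AC006030.1 (ENSG00000264324), which overlaps MTHFD2 on the opposite strand, was 25.9 and 32.6 TPM in 22RV1 and 13.1 and 15.5 TPM in PC3. It was higher in the knockdown library of each line, where MTHFD2 was lower. Between the control libraries, both genes were lower in PC3 than in 22RV1. Whether strand was used in counting is not given in the sources used here.

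MTHFD1L, the ligase that releases formate, differed least of the 9 in 22RV1. It was 34.2 and 30.2 TPM in 22RV1 and 28.4 and 26.9 TPM in PC3, and its log2 ratio of −0.17 in 22RV1 lay above 33.8% of the 3317 genes of similar level. It was also the enzyme with the smallest gap between the control lines, 34.2 against 28.4 TPM.

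ALDH1L2, which oxidises formyl-tetrahydrofolate in mitochondria, was a 22RV1 transcript. In 22RV1 it was 11.1 TPM with shCON against 5.48 TPM with shDDX52. Its log2 ratio there was −0.90, or −1.01 when 0.1 TPM was added in place of 1 TPM. In PC3 it was listed at 0.04 TPM with shCON against 0.20 TPM with shDDX52, under the 1 TPM asked of a tested gene, and no fold is given. The gene C12orf45, which overlaps it on the opposite strand, was 18.1 and 13.2 TPM in 22RV1 and 22.0 and 19.3 TPM in PC3. ALDH1L2 was thus near 0 in PC3 although its neighbour on the other strand was not. In all, 15 annotated genes overlap 6 of the enzymes, 6 of the 15 reached 1 TPM in a library, and those 6 lie on the opposite strand.

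MTHFD2 stood apart from its partners within each library as well. MTHFD2 over MTHFD1 was 0.581 in 22RV1 shCON and 0.360 in 22RV1 shDDX52, and 0.663 and 0.451 in PC3. MTHFD2 over SHMT2 was 0.137 and 0.086 in 22RV1 and 0.206 and 0.108 in PC3. Both ratios were lower in the knockdown library of each line, with log2 changes of −0.69 in 22RV1 and −0.56 in PC3 for the first and of −0.68 and −0.94 for the second. SHMT2 over SHMT1, the mitochondrial against the cytosolic form of the same reaction, was higher in the knockdown library of each line, at 7.23 and 8.40 in 22RV1 and 10.4 and 11.9 in PC3. MTHFD1L over MTHFD1 was 0.224 and 0.259 in 22RV1 and 0.325 and 0.322 in PC3.

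**Figure D3:**
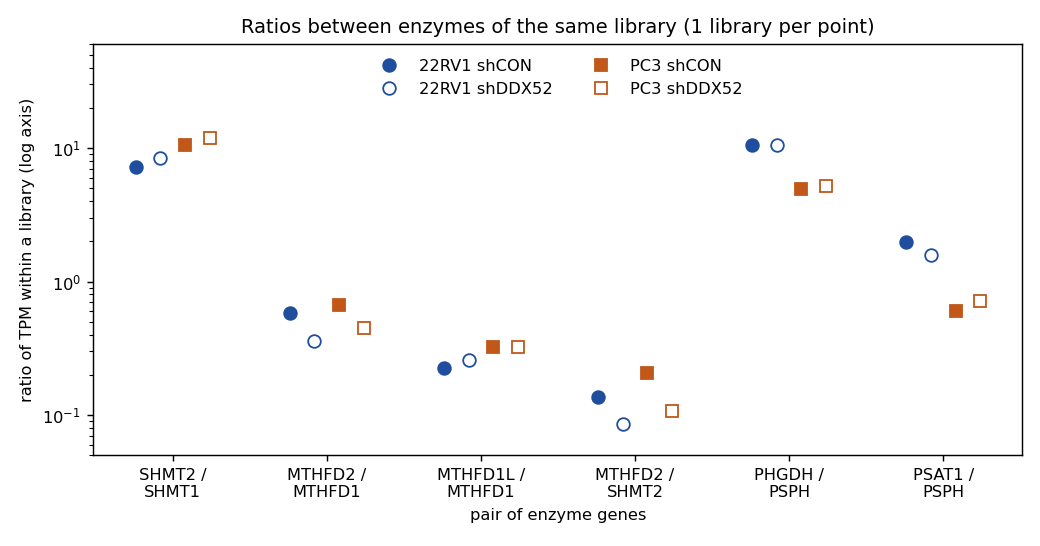
Ratio of the TPM of 2 enzymes within the same library, on a log axis, with circles for 22RV1, squares for PC3, filled symbols for shCON and open symbols for shDDX52, 1 library per point. MTHFD2 over MTHFD1 and MTHFD2 over SHMT2 are lower in the shDDX52 library of both lines, and PHGDH over PSPH differs by line and little by shRNA.

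In 22RV1 the balance between compartments stayed close to constant when enzymes were summed. The mitochondrial enzymes held 46.2% of the summed TPM of the 9 in shCON and 46.3% in shDDX52, the serine synthesis enzymes 39.5% in both, and the cytosolic enzymes 14.3% in both. In PC3 they held 55.9% and 56.8%, 26.8% and 27.7%, and 17.4% and 15.5%. The sums are carried by SHMT2 and PHGDH, which made up 38.2% and 30.7% of the total in 22RV1 shCON, where MTHFD2 made up 5.25%.

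Other folate genes had medians nearer to that of all genes. For the counts that follow, 8.47% of all genes were at least 1.5-fold lower and 5.61% higher in 22RV1, and 9.84% and 8.95% in PC3. Of 12 tested genes among the other folate enzymes in 22RV1, none was 1.5-fold lower and MTHFS alone was 1.5-fold higher. Their median was −0.13, and none passed 1.5-fold in either direction in PC3, with a median of −0.090. MTHFS, which returns formyl-tetrahydrofolate to the folate pool and is named after its values were seen, was 5.78 and 10.3 TPM in 22RV1 and 23.6 and 19.7 TPM in PC3. Of the folate transport genes, 6 were tested in 22RV1 and 4 in PC3, and none passed 1.5-fold in either line. The 6 genes of purine and thymidylate synthesis, of which GART, ATIC and TYMS use folate carbon and are also on the first list, had medians of −0.099 and −0.0087 with none past 1.5-fold.

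The glycine cleavage genes provide another mitochondrial source of folate-bound carbon. Of these, 3 of 4 tested lay below 0 in 22RV1, against 58.8% of all genes, and 3 of 3 in PC3, against 53.5%. Their medians were −0.31 and −0.47. GCSH, its lipoyl carrier, was 61.8 and 48.3 TPM in 22RV1 and 56.1 and 40.1 TPM in PC3, with log2 ratios of −0.35 and −0.47. DLD, the shared dehydrogenase, was 48.8 and 40.2 TPM in 22RV1 and 57.7 and 50.3 TPM in PC3. GLDC, the decarboxylase, stayed under 4 TPM in all 4 libraries and had a log2 ratio of 0.59 in 22RV1 against −0.61 in PC3. AMT stayed under 2.5 TPM, with a log2 ratio of −0.64 in 22RV1. GCSH and DLD were thus lower in the knockdown library of each line, and GLDC and AMT passed 1.5-fold at low levels. Over all genes, 8.47% were at least 1.5-fold lower and 5.61% higher in 22RV1, and 9.84% were lower in PC3.

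Among 16 tested genes of serine supply and use, 3 were 1.5-fold lower or more and 1 was 1.5-fold higher or more in 22RV1, against 8.47% and 5.61% of all genes. Their median was −0.13. SLC1A5, a neutral amino acid transporter, was 245 and 148 TPM in 22RV1 and 61.7 and 66.5 TPM in PC3. SARS1, the cytosolic seryl-tRNA synthetase, was 205 and 133 TPM in 22RV1 and 98.7 and 105 TPM in PC3, and SFXN1, the mitochondrial serine carrier, was 42.3 and 27.8 TPM in 22RV1 and 13.6 and 20.2 TPM in PC3. These 3 genes, the ones at least 1.5-fold lower in 22RV1, lay above 0 in PC3, as SHMT1 and PSAT1 did. Of all genes tested in both lines, 27.4% lay below 0 in 22RV1 and above 0 in PC3. The PC3 log2 ratios were small for SLC1A5 and SARS1, at 0.11 and 0.0845, and 0.53 for SFXN1. The 1 higher gene, SDS, a serine dehydratase, reached only 1.94 TPM. In PC3, none of the 15 tested was at least 1.5-fold lower, against 9.84% of all genes, and 1 was higher, against 8.95%. The higher gene was SLC1A4, a serine and alanine transporter, at 1.99 and 4.29 TPM, beside 19.7 and 13.6 TPM in 22RV1.

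The methionine cycle and transsulfuration, which take over methyl groups and serine, had 2 of 11 tested genes past 1.5-fold in 22RV1, both lower, against 8.47% of all genes, and a median of −0.25. In PC3 1 of 10 passed 1.5-fold, upward, against 8.95%, and the median was −0.0008. CBS, which joins serine to homocysteine and is named after its values were seen, was 216 and 168 TPM in 22RV1 and 15.6 and 17.5 TPM in PC3. Of the choline-derived suppliers of one-carbon units, 1 of 4 tested was at least 1.5-fold lower in 22RV1, against 8.47% of all genes, and none of 2 in PC3, against 9.84%. The medians were −0.19 and −0.34. The 1 lower gene, DMGDH, reached only 1.21 TPM and is named after its values were seen. The 11 genes of glycolysis from hexokinase to PGAM1, which acts just past the branch point of serine synthesis, had a median of −0.070 in 22RV1 and 0.18 in PC3. All 11 were above 0 in PC3, against 46.3% of all genes as deposited and 59.7% over nuclear protein-coding genes.

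The 12 amino acid stress companions, ATF4 and genes known to be induced with it, had medians on the same side of 0 as the enzymes in each line. In 22RV1, 11 were below 0, against 58.8% of all genes, and 5 passed 1.5-fold lower, against 8.47%. Their median was −0.41. In PC3, 8 of the 10 tested were above 0, against 46.3%, and 2 passed 1.5-fold higher, against 8.95%. The median was 0.26. The list was written with earlier results of these data known and shares no gene with the 9 enzymes.

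ASNS, asparagine synthetase, was the only companion with a log2 ratio past 1 in size. It was 161 and 62.4 TPM in 22RV1 and 20.9 and 21.5 TPM in PC3, and its 22RV1 log2 ratio was −1.36. PCK2, the mitochondrial phosphoenolpyruvate carboxykinase, was 177 and 93.4 TPM in 22RV1 and 13.8 and 17.4 TPM in PC3. DDIT3, a stress transcription factor, was 44.9 and 25.9 TPM in 22RV1 and 14.3 and 19.8 TPM in PC3. These 3 were, like the enzymes, more abundant in 22RV1 than in PC3 in both conditions. Between the control libraries, 10 of the 12 companions had a log2 difference above 0, 22RV1 over PC3, against 52.3% of genes. With shDDX52, CHAC1, DDIT4 and TRIB3 went the other way. CHAC1 was then 2.61 TPM in 22RV1 against 7.92 TPM in PC3, and DDIT4 28.8 against 115 TPM. ATF4 mRNA itself was 783 and 593 TPM in 22RV1 and 345 and 392 TPM in PC3, with log2 ratios of −0.40 and 0.18. CHAC1 and DDIT4 were also at least 1.5-fold lower in 22RV1, at −0.99 and −0.88, while TRIB3 was 111 and 89.9 TPM in 22RV1 and 132 and 114 TPM in PC3, below 0 in both lines. SESN2 and DDIT4 were the 2 past 1.5-fold in PC3, at 0.81 and 0.99.

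**Figure D4:**
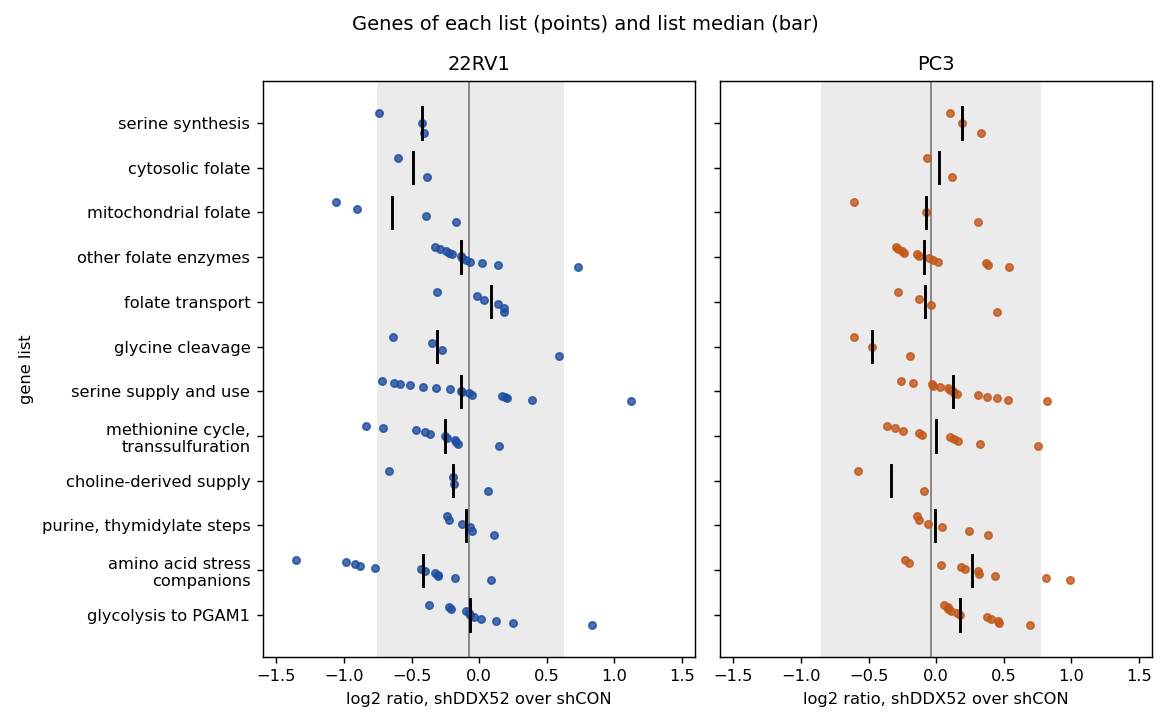
Log2 ratio of shDDX52 over shCON for each tested gene of 12 lists (points) in 22RV1 and PC3, with the list median as a black bar, the median of all genes tested as a grey line and their 5th to 95th percentile range as a grey band. In 22RV1 the medians of the 3 enzyme groups and of the amino acid stress companions lie between −0.65 and −0.41, and in PC3 none of these 4 lies below −0.076.

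The genes most like the mean profile of the 9 enzymes were found by the Euclidean distance between log2(TPM + 1) values over the 4 libraries, each gene centred on its own mean, among 9872 protein-coding genes with at least 5 TPM in a library. The nearest 6 were LAP3, SARAF, ZFAND2A, NLN, NRBP2 and NFX1, at distances from 0.10 to 0.13. LAP3, a cytosolic aminopeptidase, was 42.7, 30.7, 16.0 and 15.5 TPM in 22RV1 shCON, 22RV1 shDDX52, PC3 shCON and PC3 shDDX52. SARAF, a regulator of store-operated calcium entry, was 99.2, 69.9, 38.7 and 38.8 TPM. Both show the mean shape, high in 22RV1 shCON, lower in 22RV1 shDDX52 and level in PC3. Of the enzymes themselves, SHMT1 lay closest to the mean profile, at 0.16, and ALDH1L2 furthest, at 1.83, with MTHFD1L and MTHFD2 at 1.01 and 0.99.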

How the data were processed

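RNA-seq libraries came from 4 cultures, 22RV1 or PC3 with shCON or shDDX52, 1 library each, sequenced and mapped by a commercial provider. The authors deposited TPM values per Ensembl gene, made on an online platform, and the submitters' processing notes name CASAVA, HISAT2 and hg19. The counting program, annotation, strand setting and filters are not given in the sources used here. Positions are those of GENCODE release 29 on GRCh38, which lists 58453 of the 60671 identifiers, and 42020 had a symbol. TPM keeps no depth, so single values carry no interval. Log2 ratios used a pseudocount of 1 TPM, and a gene was tested with at least 1 TPM in either library. The members, the 12 pathway lists and the 5 marker lists were chosen with earlier results of these data known. Genes named are the 9 enzymes, DDX52, pathway list genes (not markers) that reach 5 TPM and differ 2-fold, the serine supply, glycine cleavage and stress lists, the 6 nearest profiles, and overlapping genes or pseudogenes. No p-value was computed. Some items of the lists are not reported here. Scripts were tested on simulated data. Alternatives were the pseudocount, the filter, nuclear protein-coding scaling and centring. Calculations ran in pandas 2.3.3 with numpy 2.4.6 under Python 3.11.15, and plots in matplotlib 3.10.9.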

Additional observations from a re-analysis of the deposited data

Results flagged for a closer look

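The log2 ratios of 5 enzymes had opposite signs in the 2 cell lines, below 0 in 22RV1 and above 0 in PC3. The PC3 log2 ratio minus the 22RV1 log2 ratio was 0.60 for PHGDH, 1.07 for PSAT1, 0.52 for PSPH, 0.72 for SHMT1 and 0.70 for SHMT2. With 1 library per condition, none of these differences was tested. MTHFD2 was below 0 in both lines, with a difference of 0.45.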

How the results depend on the processing

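The 25 results were recomputed under 79 alternatives, all planned. In 60 the value moved by at most 0.1 on the log2 scale or the count stayed within 1.5 times, in 17 it moved further and in 2 it reversed. The reversals were the PC3 log2 ratios of MTHFD1 (0.061) and MTHFD1L (0.050) with nuclear protein-coding scaling, which also moved the PC3 median of the 9 enzymes, ALDH1L2 ranked with them, from 0.12 to 0.24. The count of enzymes at least 2-fold lower in 22RV1 was 2 with a pseudocount of 0.1 TPM and 0 after centring, where MTHFD2 was −0.98. Genes at least 2-fold lower in 22RV1 numbered 786 with that pseudocount, 181 with nuclear protein-coding scaling and 169 with at least 5 TPM, against 413, and in PC3 847, 169 and 238, against 490. Both scaling and the higher minimum test fewer genes. All 9 log2 ratios in 22RV1 stayed below 0 under each alternative run. No paired analysis was possible because the groups hold 1 sample each, and for the same reason no replicate could be left out.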

Other observations

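PFKP, a phosphofructokinase of the glycolysis list, was higher with shDDX52 in both lines, against the direction of MTHFD2. In 22RV1 it was 69.2 TPM with shCON against 124 TPM with shDDX52, and in PC3 131 and 213 TPM, giving log2 ratios of 0.84 and 0.70. It was the only gene of that list at least 1.5-fold higher in either line, against 5.61% of all genes in 22RV1 and 8.95% in PC3. PFKP was named after its values were seen. HK2, a hexokinase, was 18.5 and 14.1 TPM in 22RV1 and 17.2 and 24.0 TPM in PC3, and was likewise named after its values were seen.

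Some other folate genes differed more between the lines than between the shRNAs. FOLH1, which trims folate polyglutamates and is a prostate membrane antigen, was 67.9 and 77.4 TPM in 22RV1 and 0.05 and 0.26 TPM in PC3. SLC25A32, the mitochondrial folate carrier, went the other way, at 5.63 and 5.56 TPM in 22RV1 and 17.7 and 17.2 TPM in PC3, as did MTHFD2L, a paralog of MTHFD2, at 2.62 and 2.99 TPM in 22RV1 and 8.77 and 7.3 TPM in PC3. These 3 genes were picked after their values were seen.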
